A study of Homo sapiens with 6 samples.

Results

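RNA-seq libraries of K562 cells with knockdown of lncRNA-IUR-5 were read for 8 genes of cholesterol supply. They were 5 enzymes of the synthesis route (HMGCS1, IDI1, FDFT1, SQLE and DHCR7), the sterol-dependent retention factor INSIG1, and both genes for the sterol regulatory element binding proteins (SREBF1 and SREBF2). The genes were named by their place in the pathway, with earlier results of these data known. Their rows in the read table were found by RefSeq protein accession. All 8 were found, with 37 of the 109018 rows, among 19053 genes with a symbol in the table. Each passed the filter on low values, so that all 8 were among the 8944 genes tested and all 37 rows among the 38204 rows tested.

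K562 is an established human chronic myelogenous leukemia cell line that carries the Bcr-Abl fusion kinase. The knockdown group expressed a short hairpin RNA against a long non-coding RNA that the library labels call lncRNA-IIRX and the study calls lncRNA-IUR-5 (sh-lncRNA-IIRX, 3 libraries), and the control group expressed a hairpin against luciferase (sh-luc, 3 libraries). All 6 libraries therefore came from cells with a hairpin vector, and the labels give 1 hairpin per target and neither a dose nor a time. Total reads were 21023739 to 31481109 per library, and the deepest was knockdown library 1. The rows of the table are protein accessions, so the level of the targeted lncRNA was not analysed here and the labels could not be checked against it.

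All 9 K562 markers examined had reads, with a summed level of 20252 to 22632 RPKM in the control libraries and 16129 to 16815 RPKM in the knockdown libraries. Of 8 markers of other cell types, MS4A1 had no read in any library and 6 of the 8 had a mean below 1 RPKM, while EPCAM had a mean of 91.4 RPKM in the controls. The part of these marker levels in the results was not tested.

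Cells make cholesterol from acetyl units by way of mevalonate, isoprenoid diphosphates and squalene, and take it up from lipoproteins. When sterols are scarce in the endoplasmic reticulum, the escort protein SCAP carries the SREBP precursors to the Golgi, where a pair of proteases releases the active factors. INSIG proteins hold SCAP back when sterols are plentiful, and the released factors bind sterol regulatory elements in the promoters of synthesis and uptake genes, often beside CCAAT boxes and GC boxes.

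Promoter sequence was read for 6 of the members, FDFT1 and SQLE not included, in the 250 bases before each of their 10 RefSeq starts (GRCh38.p14), to show which of these letters stand before the genes described here. A core like the sterol regulatory element, CACNCCAC on either strand, was found before 3 of the 6 genes (SREBF2, INSIG1, and 1 of 3 starts of IDI1), which is 3 of the 10 starts. It was found in 4.87% of all 35116 windows of that length. The 3 matches are shown on the strand of the gene with 11 bases on each side and the core in capitals. They lie at chr22:41832962-41832991 on the plus strand for SREBF2, at chr7:155297659-155297688 on the plus strand for INSIG1 and at chr10:1048983-1049012 on the minus strand for IDI1.
SREBF2: tgacgcgccatCACCCCACgcaccgcttcg
INSIG1: gcgggccggcgGTGGCGTGtgcgcacgtca
IDI1: ggccgggcgatGTGGCGTGgactggcgctg

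These cores begin 132, 208 and 115 bases before the start of SREBF2, INSIG1 and IDI1. HMGCS1 and DHCR7 had no such core in these windows, but each had a pair of CCAAT boxes (CCAAT or ATTGG) before 1 of its 2 starts. A CCAAT box was present before 5 of the 6 genes, with SREBF1 as the exception, or in 6 of the 10 windows, and in 32.0% of all windows. The box nearest to the start is shown in capitals with 12 bases on each side, at chr5:43313496-43313524 on the minus strand for HMGCS1 and at chr11:71448425-71448453 on the minus strand for DHCR7.
HMGCS1: ctaccggccgcgATTGGctgtgggagcca
DHCR7: ggtccgcctccgATTGGcaggcaatcgct

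The GC box GGGCGG, searched on both strands, stood before at least 1 start of each of the 6 genes. By window it was present in 9 of 10, with a start of DHCR7 as the exception, and in 42.6% of all windows. No box overlapped a core in the stretches shown. The spellings of the motifs and the stretches to show were settled after the matches were seen, and a match describes letters and not a bound site.

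After knockdown, 5 of the 8 genes rose (HMGCS1, IDI1, DHCR7, INSIG1 and SREBF2) and none fell. The 3 others (FDFT1, SQLE and SREBF1) did not pass the test, which was edgeR's quasi-likelihood test on the reads summed over a gene's rows, with Benjamini-Hochberg adjustment over all genes tested and a threshold of 0.05. The shift was broad in these libraries, since 49.7% of all genes tested passed, 26.4% higher and 23.2% lower in the knockdown. The median log2 difference was 0.41 over the 8 members and 0.01 over all genes tested. Since the members were chosen with earlier results of these data known, the comparison with all genes only describes them. In 5 members every knockdown library lay above every control library, a pattern held by 30.7% of all genes tested, and the opposite order was held by 27.3% of all genes and by no member.

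HMGCS1 encodes the cytosolic synthase that joins acetyl-CoA and acetoacetyl-CoA to HMG-CoA (chromosome 5, 43287470 to 43313512, minus strand, GENCODE release 44). Its level, in CPM (counts scaled to library depth with the trimmed mean of M values, TMM), was 29.9, 27.0 and 25.5 in control libraries 1, 2 and 3 and 49.2, 42.5 and 44.3 in knockdown libraries 1, 2 and 3. The groups did not overlap, and each knockdown library was well above each control. HMGCS1 rose by a log2 difference of 0.72 ± 0.09 (SE, n = 3 per group, 1.65-fold, adjusted p = 9.1e-05), the largest difference among the members.

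IDI1 encodes the isomerase that makes dimethylallyl diphosphate from isopentenyl diphosphate (chromosome 10, 1039152 to 1049119, minus strand). It had 32.0, 34.5 and 31.7 CPM in the control libraries and 45.4, 42.7 and 45.1 CPM in the knockdown libraries. Both groups were tight and lay apart, and knockdown library 1 stood out from the other two less than for any other member that rose. The log2 difference was 0.44 ± 0.07 (SE, n = 3 per group, 1.36-fold, adjusted p = 0.000595 by edgeR).

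FDFT1, the squalene synthase that commits farnesyl diphosphate to sterols (chromosome 8, 11795573 to 11839395, plus strand), had the highest level of the 8. Its CPM was 242, 211 and 206 in the controls and 271, 216 and 211 in the knockdown libraries. Control library 1 lay above knockdown libraries 2 and 3, so that the groups overlapped. The log2 difference of 0.08 ± 0.10 (SE, n = 3 per group, adjusted p = 0.519 by edgeR) was within the spread between libraries.

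SQLE, the squalene epoxidase of the first oxygen-dependent step (chromosome 8, 124998497 to 125022283, plus strand), had 160, 109 and 97.6 CPM in the controls. It had 177, 104 and 111 CPM in the knockdown libraries. Library 1 was the highest of its group in both arms by a wide margin, and the other 2 libraries of each group fell in one range. The log2 difference was 0.10 ± 0.21 (SE, n = 3 per group, adjusted p = 0.709 by edgeR), the widest error among the members.

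DHCR7 encodes the reductase of the last step to cholesterol in one branch of the route (chromosome 11, 71428193 to 71452868, minus strand). Its CPM was 38.8, 34.1 and 38.0 in the controls and 60.0, 42.3 and 41.8 in the knockdown libraries. The groups did not overlap, but knockdown libraries 2 and 3 were only slightly above the highest control. DHCR7 rose by a log2 difference of 0.38 ± 0.13 (SE, n = 3 per group, 1.30-fold, adjusted p = 0.0303 by edgeR).

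**Figure D1:**
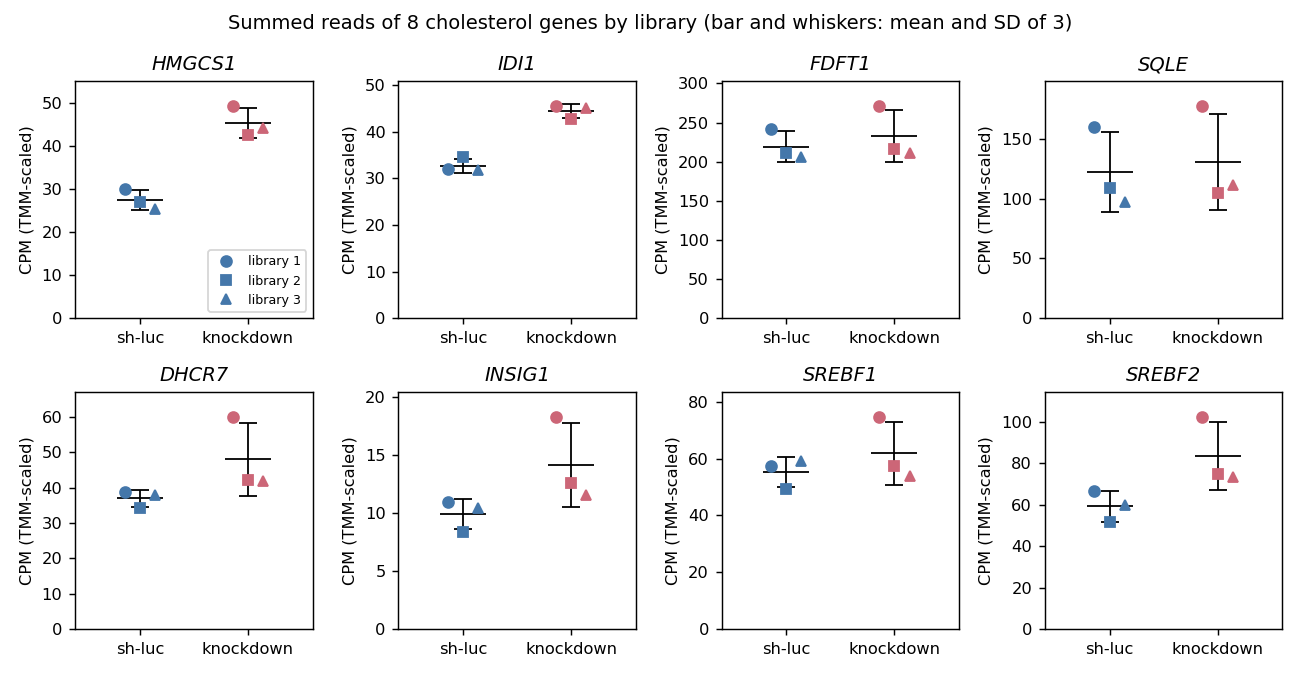
Summed reads of the 8 genes in each library, in TMM-scaled CPM on axes that start at 0; symbols mark libraries 1 to 3, and bars with whiskers give the mean and SD of 3. All 3 knockdown libraries lie above all 3 controls for HMGCS1, IDI1, DHCR7, INSIG1 and SREBF2, and library 1 is the highest of the knockdown group in all 8 panels.

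INSIG1, which retains SCAP in the endoplasmic reticulum, is itself an SREBP target (chromosome 7, 155297776 to 155310235, plus strand). It was the member with the fewest reads, 167 to 239 in the controls and 299 to 626 in the knockdown libraries. These corresponded to 10.9, 8.38 and 10.4 CPM in the controls and 18.2, 12.5 and 11.5 CPM in the knockdown libraries. Knockdown library 1 was far above the other two, and knockdown library 3 was just above control library 1. The log2 difference was 0.52 ± 0.17 (SE, n = 3 per group, 1.43-fold, adjusted p = 0.0267 by edgeR).

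SREBF2 encodes SREBP-2, the form that acts mainly on cholesterol genes (chromosome 22, 41833105 to 41907306, plus strand). Its CPM was 66.4, 51.6 and 59.7 in the controls and 102, 74.9 and 73.5 in the knockdown libraries. The groups lay apart, with knockdown library 1 highest and control library 2 lowest. SREBF2 rose by a log2 difference of 0.50 ± 0.13 (SE, n = 3 per group, 1.41-fold, adjusted p = 0.00841 by edgeR).

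SREBF1 encodes SREBP-1, which acts more on fatty acid genes (chromosome 17, 17810399 to 17837002, minus strand). It had 57.4, 49.4 and 59.2 CPM in the controls and 74.7, 57.3 and 53.9 CPM in the knockdown libraries. Only knockdown library 1 lay above all controls, and the groups overlapped. The log2 difference was 0.17 ± 0.12 (SE, n = 3 per group, adjusted p = 0.266 by edgeR).

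The balance of the SREBF genes was also read as a ratio within each library, which does not depend on how libraries are scaled. The log2 ratio of SREBF1 to SREBF2 reads was −0.21, −0.06 and −0.01 in the controls and −0.45, −0.39 and −0.45 in the knockdown libraries. Every knockdown library was below every control, with means of −0.10 ± 0.10 and −0.43 ± 0.04 (SD, n = 3 each). The difference was −0.33 (exact permutation test, two-sided, p = 0.1, the smallest p that 3 against 3 libraries can give, so that this test could not pass the threshold).

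Levels were compared between genes only per length, as RPKM summed over a gene's rows. In the controls the order was FDFT1 at 184 ± 16.9 RPKM (SD, n = 3), SQLE at 70.1 ± 18.9, IDI1 at 44.1 ± 1.88 and DHCR7 at 24.4 ± 1.79. SREBF2 at 18.9 ± 2.48, HMGCS1 at 17.1 ± 1.39, SREBF1 at 15.1 ± 1.56 and INSIG1 at 14.6 ± 2.32 followed, and in this lower set each neighbour overlapped the next in its library values. In the knockdown libraries HMGCS1 had a mean of 31.9 ± 3.22 RPKM and SREBF2 of 30.3 ± 6.66. SREBF1, at 19.1 ± 3.90, came below INSIG1 at 23.6 ± 6.62 RPKM, with overlapping values. In these bulk samples a change in the RNA of each cell and a change in the share of cells with that RNA cannot be told apart.

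One library weighed on several of these values. Knockdown library 1 had the highest CPM of its group in 8 of 8 members, against 41.2% of all genes tested, and control library 1 was the highest of its group in 6 of 8 members, against 35.0% of all genes. Without knockdown library 1, HMGCS1 kept a log2 difference of 0.66 (adjusted p = 6.1e-05), IDI1 of 0.42 (adjusted p = 0.000711) and SREBF2 of 0.32 (adjusted p = 0.0129, all by edgeR). INSIG1 at 0.28 (adjusted p = 0.0910) and DHCR7 at 0.18 (adjusted p = 0.0858) then no longer passed edgeR's test, SREBF1 was at 0.01, and SQLE at −0.18 and FDFT1 at −0.04 had the opposite sign without passing it. The count of members that rose was 3 of 8 in that fit, where 2268 of all 8944 genes tested rose and 2138 fell. Without control library 2, INSIG1 at 0.41 and DHCR7 at 0.33 also did not pass (adjusted p = 0.0949 and 0.0960 by edgeR). Without control library 3 their differences were slightly larger than with all libraries, at 0.55 and 0.40, and did not pass either (adjusted p = 0.0569 and 0.0681 by edgeR).

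In the library labels, replicates 2 and 3 carry the number of a common series that replicate 1 lacks, in both arms. Within the series of library 1, with 1 library per group and no test, the log2 difference was 0.72 for HMGCS1, 0.51 for IDI1, 0.63 for DHCR7, 0.74 for INSIG1 and 0.62 for SREBF2. Within the other series, with 2 libraries per group, it was 0.72, 0.41, 0.22, 0.36 and 0.42 for the same genes in that order. SREBF1 had 0.38 in the first series and 0.04 in the second, SQLE 0.15 and 0.06, and FDFT1 0.16 and 0.04. HMGCS1 thus had like values in both series, while the 7 other members had larger ones in the series of library 1, by the widest margin for DHCR7, INSIG1 and SREBF1. The study speaks of independent groups of cells, but the labels do not say whether libraries 2 and 3 came from separate cultures. The p-values therefore measure the spread between these samples, which may be partly technical. The chi-square per gene between libraries was 4.91 for control libraries 2 and 3 and 3.26 for knockdown libraries 2 and 3, against 9.42 to 18.4 for pairs with library 1.

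**Figure D2:**
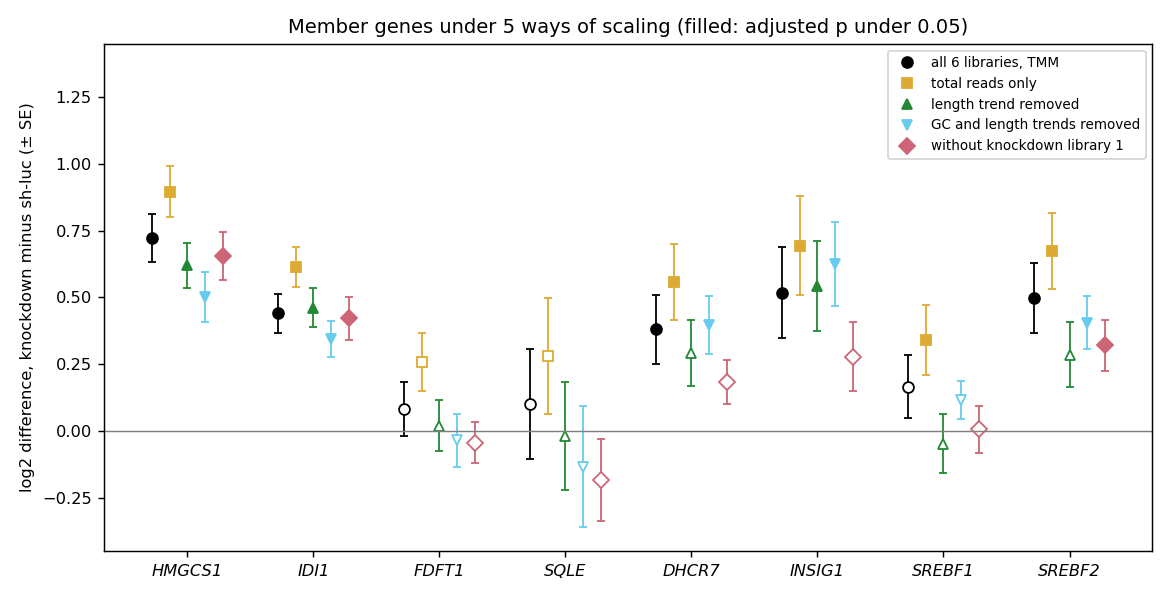
Log2 difference of each member, knockdown minus sh-luc (± SE), in the fit of all 6 libraries and in 4 alternatives; filled symbols have an adjusted p under 0.05. HMGCS1 and IDI1 are filled in all 5 fits, DHCR7, INSIG1 and SREBF2 in some, SREBF1 only with total reads, and SQLE and FDFT1 in none.

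Scaling by total reads alone moved the median of all genes tested from 0.01 to 0.19, and its calls were 3700 higher and 1092 lower against 2363 and 2078 with the scaling used here. On that scale 6 members rose, with SREBF1 added at 0.34 (adjusted p = 0.0460 by edgeR). The log2 difference also moved with row length over all genes. It had a median of −0.29 in the decile of genes with the shortest rows and of 0.25 in the decile with the longest.

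Against the median of genes of like length, INSIG1 (length 834) was higher by 0.62, HMGCS1 (1563) by 0.64, IDI1 (855) by 0.49, DHCR7 (1428) by 0.33 and SREBF2 (3426) by 0.25. FDFT1 (1254) and SQLE (1725) lay 0.03 and 0.02 above that median, and SREBF1 (3534) had a value of −0.08 against it. With each library's trend on length removed, 21.7% of all genes tested rose and 3 members did, namely HMGCS1 at 0.62, INSIG1 at 0.54 and IDI1 at 0.46 (adjusted p = 0.000242, 0.0215 and 0.000570, edgeR). SREBF2 was then at 0.29 (adjusted p = 0.0748) and DHCR7 at 0.29 (adjusted p = 0.0740, edgeR), while SREBF1 was at −0.05 and SQLE at −0.02. With trends on both GC content and length removed, the same 5 members as in the first fit rose, and SQLE at −0.14 and FDFT1 at −0.04 had a negative sign. In that fit 1958 of all 8833 genes rose and 2294 fell. What makes the difference move with length was not tested.

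Single rows were then read, each a RefSeq protein accession. Rows of a gene can have the same length, as several do for HMGCS1, FDFT1 and DHCR7, so that an accession need not stand for a protein of its own. Of the 37 rows 19 rose and none fell by edgeR's test over all rows, where 19.2% of all rows tested rose. Rows of a gene share sequence, and how the authors placed a read that fits several rows is not given in the sources used here, so the rows are not independent measurements.

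All 7 HMGCS1 rows rose, with log2 differences from 0.63 to 0.75, and all 4 SREBF2 rows rose, from 0.40 to 0.60. Among the SREBF2 rows, the longest (NP_004590.2, 3426 nucleotides) had 0.40 ± 0.12 and XP_016884410.1 had 0.60 ± 0.13 (SE). The difference between rows was not tested.

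Of the 5 IDI1 rows 4 rose, NP_004499.2 at 0.53 the most, while XP_016871680.1 at 0.27 did not pass (adjusted p = 0.0708 by edgeR). INSIG1 had the widest spread between its rows. The full-length NP_005533.2 had 0.50 ± 0.16 and the shortest, NP_938151.1, had 0.83 ± 0.27 on 14 to 104 reads per library (SE, adjusted p = 0.0202 and 0.0215 by edgeR). The third INSIG1 row, NP_938150.2, had 0.38 and did not pass (adjusted p = 0.0897 by edgeR).

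Both DHCR7 rows rose, by 0.34 and 0.39. These 2 rows have the same length of 1428 nucleotides, and their reads differed by 3 to 53 per library, with 49.7 to 53.1% of the pair's reads on the first. None of the 11 FDFT1 rows (−0.06 to 0.18), the 2 SQLE rows (0.00 to 0.15) or the 3 SREBF1 rows (0.14 to 0.16) passed, with adjusted p of at least 0.297 in edgeR's test for these 16 rows.

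**Figure D3:**
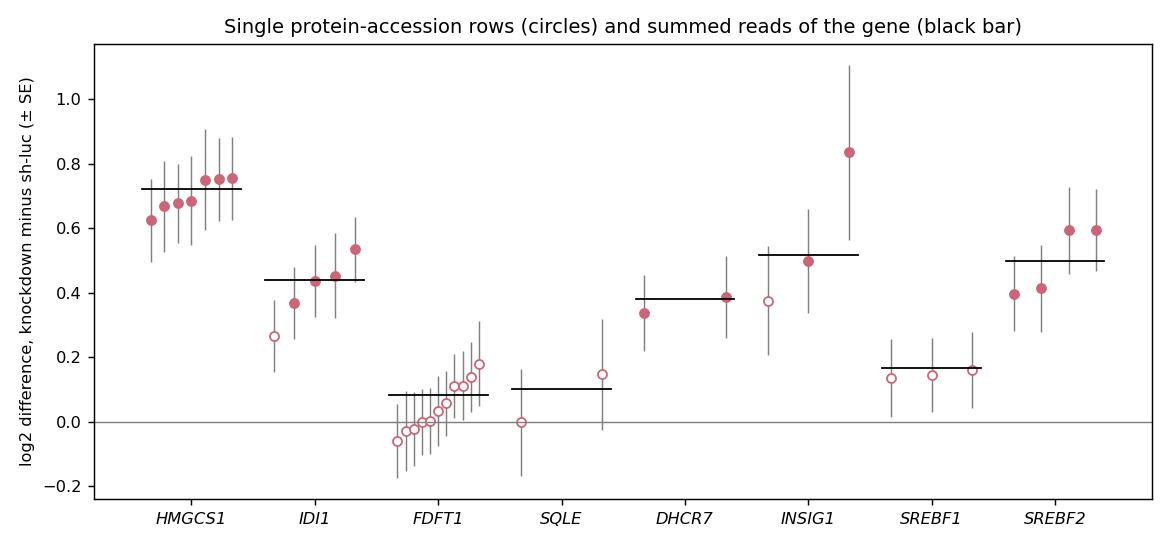
Log2 difference of each protein-accession row, knockdown minus sh-luc (circle ± SE, filled where it rose), beside the value of the gene's summed reads (black bar). The 7 HMGCS1 rows run from 0.63 to 0.75, the 11 FDFT1 rows sit around 0, and the INSIG1 rows are the most spread.

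Other enzymes of the route were read from a list, of which 14 are reported here and all were tested. Of these 4 rose, 6 fell and 4 did not pass, with a median log2 difference of −0.13. These counts are 28.6% and 42.9% of the list, beside the 26.4% of all genes tested that rose and the 23.2% that fell, so that the share that rose was near that of all genes. The 4 that rose all act after squalene. LBR, a sterol C14 reductase that also anchors chromatin at the nuclear envelope, had the largest difference at 0.99 ± 0.08. MSMO1, the C4-methyl oxidase, had 0.81 ± 0.16, SC5D, the C5 desaturase, had 0.62 ± 0.14 and CYP51A1, the C14 demethylase, had 0.58 ± 0.08.

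Those that fell lay mostly between acetoacetyl-CoA and farnesyl diphosphate. They were PMVK (−0.54 ± 0.08), MVD (−0.45 ± 0.11), FDPS (−0.40 ± 0.06) and the thiolase ACAT2 (−0.29 ± 0.06), which act before squalene, and the later enzymes EBP (−0.54 ± 0.07) and NSDHL (−0.22 ± 0.07). With scaling by total reads alone, ACAT2 (−0.12), MVD (−0.28) and NSDHL (−0.04) no longer passed the test.

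**Figure D4:**
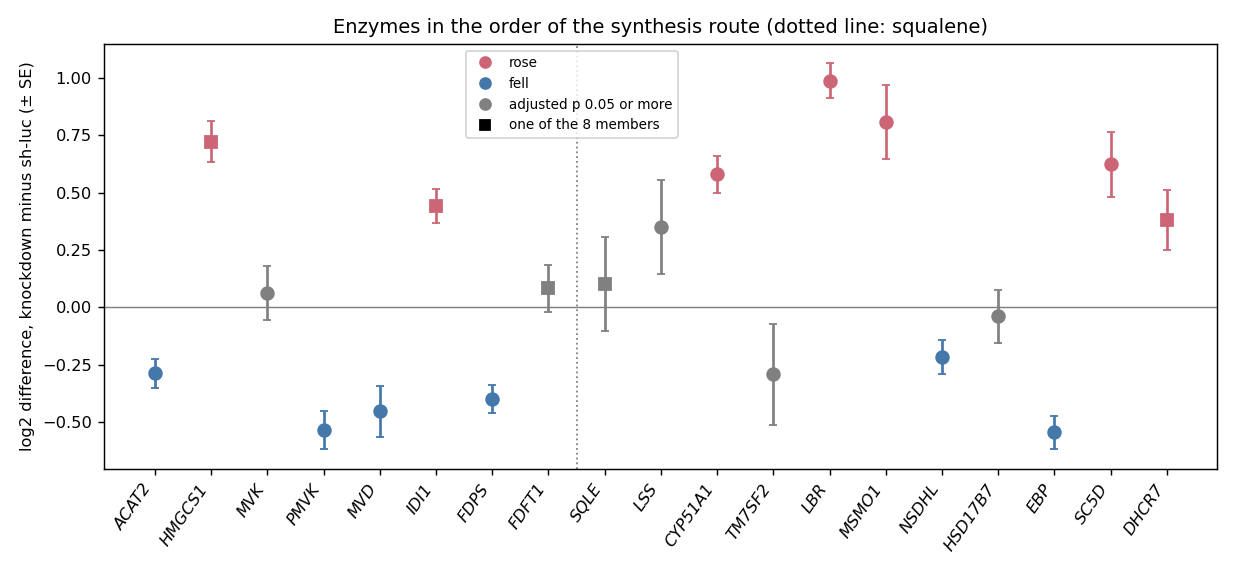
Log2 difference of the 19 enzymes reported here, knockdown minus sh-luc (± SE), in the order of the synthesis route, with the members as squares and the dotted line at squalene. HMGCS1 and IDI1 rose among enzymes that act before squalene, where ACAT2, PMVK, MVD and FDPS fell.

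Around INSIG1 and the SREBF genes, 8 of the 9 genes for SREBP control reported here were tested, of which 5 rose and none fell (median 0.44). The share that rose was 62.5%, beside 26.4% of all genes tested, where 23.2% fell. With GC and length trends removed, 3 of the 8 rose and none fell, where 1958 of all 8833 genes in that fit rose and 2294 fell. Both proteases that release SREBP rose, MBTPS1 at 0.54 ± 0.07 and MBTPS2 at 0.57 ± 0.16. The ubiquitin ligase RNF139 (0.34 ± 0.08), which acts in sterol-dependent turnover, also rose. ERLIN1 (0.73 ± 0.14) and ERLIN2 (0.73 ± 0.14), membrane proteins that bind INSIG and SREBP complexes, had the largest differences of the list. The 3 others ran from −0.04 to 0.17.

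For uptake, storage and efflux, 12 of the 17 genes reported here were tested, 5 rose, or 41.7%, and 1 fell, or 8.33%, beside 26.4% and 23.2% of all genes tested (list median 0.36). MYLIP, a ubiquitin ligase that acts on lipoprotein receptors, rose by 0.43 ± 0.12. The sterol carrier STARD4 (0.85 ± 0.14), the sterol-esterifying SOAT1 (0.80 ± 0.08), the oxysterol-binding OSBP (0.73 ± 0.08) and the lysosomal NPC1 (0.42 ± 0.10) rose too. NPC2, the lysosomal partner of NPC1, fell by 0.58 on the log2 scale (± 0.17 SE). Of the isoprenoid branch 7 of 8 genes were tested and 1 rose, or 14.3%, a smaller share than the 26.4% of all genes. It was PGGT1B at 0.41 ± 0.12, a subunit of a protein prenyltransferase (list median 0.12).

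Over the list genes reported here 15 of 41 tested rose, or 36.6%, and 7 fell, or 17.1%, against 26.4% and 23.2% of all genes tested. The genes that rose had a median length of 1530 nucleotides and those that fell of 1170 nucleotides. Over all genes tested these medians were 1644 nucleotides for genes that rose and 837 nucleotides for genes that fell.

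Several calls in the lists did not hold in every alternative, although the direction of these genes stayed. With single libraries left out, some lost the call, in most cases with a smaller difference than with all libraries. MBTPS2 was at 0.44 without control library 3 (adjusted p = 0.0526), NPC2 at −0.48 without control library 1 (adjusted p = 0.0518, both by edgeR) and PGGT1B at 0.33 and 0.35 without control library 1 or knockdown library 3 (adjusted p = 0.0532 and 0.0578 by edgeR). NSDHL was at −0.17 to −0.22 without control library 3 or knockdown library 2 or 3 (adjusted p = 0.0705 to 0.129 by edgeR).

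Some differences were smaller once trends over all genes were removed. With the length trend removed, RNF139 at 0.20, NPC1 at 0.20 and NPC2 at −0.41 did not pass (adjusted p = 0.0568 to 0.0823 by edgeR). With GC and length trends removed, RNF139 was at 0.10 (adjusted p = 0.295) and NPC1 at 0.16 (adjusted p = 0.119, both by edgeR), against 0.34 and 0.42 in the first fit. In that fit PGGT1B at 0.24, MBTPS2 at 0.35 and NPC2 at −0.45 did not pass either (adjusted p = 0.0651 to 0.0724 by edgeR). NPC2 also lost the call with total reads alone, at −0.40 (adjusted p = 0.0833 by edgeR).

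Likeness of pattern was measured as the root mean square difference of centred log2 CPM over the 6 libraries, where a small value means that 2 genes moved alike from library to library. Among the lists, INSIG1 and SREBF2 were nearest to each other (0.06), and DHCR7 was also nearest to SREBF2 (0.08). HMGCS1 was nearest to CYP51A1 (0.08), IDI1 to MBTPS1 (0.06) and SQLE to LSS (0.13), the enzyme of the next step. FDFT1 and SREBF1 were both nearest to MVK (0.06 and 0.07), a gene with no call. Among all genes tested the nearest were PALS1 for HMGCS1, LSM14A for IDI1, ZNF490 for FDFT1, UBE2L6 for SQLE, JUP for DHCR7, ABHD4 for INSIG1, ALAD for SREBF1 and GATA2 for SREBF2, at 0.02 to 0.07. For every member that gene was closer than the nearest list gene, at 0.07 against 0.13 for SQLE and 0.02 against 0.08 for HMGCS1.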

How the data were processed

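Total RNA of K562 cells was sequenced in 6 libraries, 3 with a hairpin against lncRNA-IIRX (lncRNA-IUR-5 in the study) and 3 with a hairpin against luciferase. Groups and library numbers came from the labels, and the study describes independent groups of cells. The submitters' processing notes name CASAVA 1.8, Trimmomatic 0.32, Bowtie2 2.1.0, SAMtools 0.1.19 and the build hg38. The authors deposited raw read counts per RefSeq protein accession, and beside them RPKM values, whose arithmetic was checked against the counts, the lengths and the library totals. The row lengths of the members are whole numbers of codons, as coding lengths would be. Some other row lengths are not, such as 1651 nucleotides for the LSS row with most reads. A further deposited table holds the authors' own comparison (pooled values, fold change, p and q) and was not used.

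Accessions were matched to symbols with RefSeq, which gave a symbol to 64.7% of rows, holding 83.9 to 84.8% of the reads. Reads were summed per gene. Genes with at least 1 row with a mean of 1 RPKM or more were tested with edgeR 4.0.16 (R 4.3.3; TMM, quasi-likelihood, two-sided, Benjamini-Hochberg over all genes). The SE is the log2 difference divided by the root of the F statistic. The biological coefficient of variation was 8.37%. Single rows were tested in the same way, and the SREBF1 to SREBF2 ratio with an exact permutation test (Python 3.11.15).

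Alternatives were DESeq2 1.42.0, limma 3.58.1 on log2(RPKM + 0.1) and log2(RPKM + 1), other scalings and filters, trends on length and on GC content of the coding sequence (GENCODE release 44) removed with mgcv 1.9.3, a replicate block, a term for the label series, and each library left out. GC content was known for 98.8% of genes tested but for 68.5% of rows, so that the GC check on rows is void. The fits were tested on simulated data. Named genes were the 8 members, each gene of the 4 lists past the threshold (4 list genes are not reported here, and the counts and medians of the lists do not include them), and the genes most like each member. The members and the lists were chosen with earlier results of these data known. Replicates differed by more than sampling noise (chi-square per gene of 3.26 to 18.4), and none was merged.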

Additional observations from a re-analysis of the deposited data

How the results depend on the processing

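The count of members that rose, 5 of 8, was 3 to 5 as libraries were dropped singly, with 3 left without control library 2, control library 3 or knockdown library 1, and 3 with the length trend removed. In the other fits it was 4 to 6; the filter at 5 RPKM gave 4 because no HMGCS1 row reached it. The directions of the members without a call were not stable. SQLE ran from −0.18 to 0.35 as libraries were left out, and was at −0.020 with the length trend removed (−0.024 with the replicate block added) and at −0.14 with GC and length trends removed (−0.14 with the block, where it passed edgeR's test with an adjusted p of 0.013). FDFT1 ran from −0.044 to 0.16 without single libraries and was at −0.036 with GC and length trends removed (−0.042 with the block). SREBF1 was at −0.048 with the length trend removed (−0.054 with the block). The SREBF1 to SREBF2 ratio differed by −0.24 when 1 row per gene was used. Of the 41 list genes, 15 rose and 7 fell in the first fit, 23 and 3 with total reads only, and 11 fell with GC and length trends removed and the block. Over all genes tested, 2363 rose and 2078 fell, against 3700 and 1092 with total reads only. Apart from the effect of the filter on HMGCS1, the causes of these shifts were not tested.

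The library numbers paired the samples only in part. Over 7017 genes, deviations from the group means of same-numbered libraries correlated at 0.58, 0.26 and 0.00. Knockdown library 2 was closest to control library 3, and knockdown library 3 to control library 2. With a term for the label series, the same 5 members rose, where 2902 of all 8944 genes tested rose and 2655 fell. In that fit INSIG1 was at 0.50, DHCR7 at 0.37 and SREBF2 at 0.49 (adjusted p = 0.000330, 0.000213 and 7.2e-07 by edgeR). These p-values too measure a spread that may be partly technical. With the replicate block, 5 members rose, 21 member rows passed in place of 19, and 29 list genes in place of 22, of which 20 rose and 9 fell. Calls were also more frequent over all 8944 genes tested in that fit, where 2781 rose and 2506 fell, against 2363 and 2078 in the first fit. The ratio was −0.33 with the pairs (exact sign permutation p = 0.25, the smallest possible). With 3 libraries per group and 14 to 104 reads on the thinnest row, small differences may go undetected.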
